A study of Homo sapiens with 24 samples.

Results

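The 10 genes described here are Notch ligands, receptors and genes of the HES and HEY families. The ligands are DLL1, DLL3 and JAG1, and the receptors are NOTCH1, NOTCH2 and NOTCH3. HES1, HES5 and HEY1 are Notch target genes, while HES6 is of the same family but does not need Notch. All 10 were chosen by symbol, through the Ensembl identifiers that map to these names, and are 10 of 58676 gene identifiers. Each symbol matched 1 identifier. Of the 10, 9 passed the filter on low counts and were tested, and HES5 did not.

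Notch signalling passes between touching cells. A ligand of the Delta or Jagged family on 1 cell binds a Notch receptor on its neighbour, the receptor is cleaved by ADAM metalloproteases and then by the gamma-secretase complex, and the freed intracellular domain joins the DNA-binding protein RBPJ and a Mastermind coactivator to switch on genes such as HES1, HES5 and HEY1. These encode repressors that hold back neuronal differentiation genes. In the developing brain the pathway keeps neural progenitors undifferentiated, and it is active in many gliomas.

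RNA came from HSJD-DIPG-007, an established patient-derived cell line of diffuse midline glioma (DMG), a childhood tumour of the brainstem and other midline structures. The study grew the cells as spheroids and began treatment on the day after seeding. All libraries share its genotype, H3F3A K27M, ACVR1 R206H and PIK3CA MIS as labelled. Cells were given vehicle or LLY-283, an inhibitor of the arginine methyltransferase PRMT5, at the dose that inhibits growth by 40% (GI40), and per the study's methods the medium was renewed after 5 days with a second dose of the same agent. Of 24 libraries, 12 were labelled vehicle and 12 LLY-283, each arm having 3 at day 0, 3 at day 5, 2 at day 7, and a single one for days 1, 2, 3 and 10. The days count time in treatment, per the study's methods, so libraries of day 0 had 0 days of it. At day 0, LLY-283 is thus a label only, and the difference between arms is a baseline before the drug could act. Per the study, the repeats of a group are technical repeats of 1 line, so every SE and p measures only the technical spread between libraries and not that between cultures. The comparisons asked whether LLY-283 changed transcript levels, and how levels moved over the days of culture in each treatment group. In the deposited column names, libraries of days 0 to 3 carry 1 series of numbers and those of days 5, 7 and 10 another. What the series stand for is not given. Change from day 0 to day 5 cannot be told apart from a difference between the series.

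The total per library lay between 13835205 and 23190369 counts. Repeats of days 0 and 5 differed by a chi-square per degree of freedom of 1.65 to 3.79 over genes, and no pair was alike to within sampling noise, for which the value is near 1. The day 7 repeats stood apart, at 11.24 for vehicle and 13.43 for LLY-283, so day 7 values are given by library and by label, and results that rest on them are given with and without these libraries. Whether any label of day 7 was exchanged was not tested, and the order of the treatment groups at day 7 depends on it. The cells carried 7 of 8 glioma or oligodendrocyte precursor markers, with a summed level of 7306 to 8259 CPM under vehicle and 7039 to 8746 CPM in LLY-283 libraries, while SOX10 was under 1 CPM at the median. Of 10 fibroblast or mural markers 8 reached 1 CPM at the median, summing to a median of 279 CPM under vehicle and 353 CPM under LLY-283, as did 3 of 5 astrocyte markers (605 and 600 CPM), 2 of 4 neuron, 1 of 5 mature oligodendrocyte and 1 of 4 endothelial markers. Microglial markers summed to at most 0.331 CPM. The part of these levels in the results was not tested. The 3 libraries vehicle day 5 repeat 3, vehicle day 7 repeat 1 and LLY-283 day 2 held 160, 84.9 and 77.9 CPM of COL1A1, COL1A2, COL3A1 and FN1 together, genes of collagen and fibronectin, against at most 17.5 CPM in the others. CPM stands for a gene's count relative to the library total, on the usual scale, adjusted by the TMM factors of all 24 libraries. In bulk RNA, fewer cells of a type and less RNA per cell cannot be told apart.

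At day 5, LLY-283 libraries held more transcript of 5 of the 9 tested genes than vehicle libraries and less of none, at an adjusted p under 0.01 (edgeR). DLL1 and HEY1 differed most, by 1.79-fold and 1.46-fold, whereas JAG1, NOTCH1 and HES6 differed by 1.10-fold to 1.12-fold. The background was high: 26.1% of the 16491 genes tested passed this threshold, 12% as higher. At day 0, none of the 9 passed in edgeR or DESeq2, and 2 had an unadjusted p under 0.05, beside 1012 of all 17780 genes (edgeR). Of all 17780 genes tested at day 0, 3 were called, 0.0169%. Between day 5 and day 0, 8 of the 9 genes differed in each treatment group, where 38.9% of all genes did under vehicle and 42.4% under LLY-283.

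**Figure D1:**
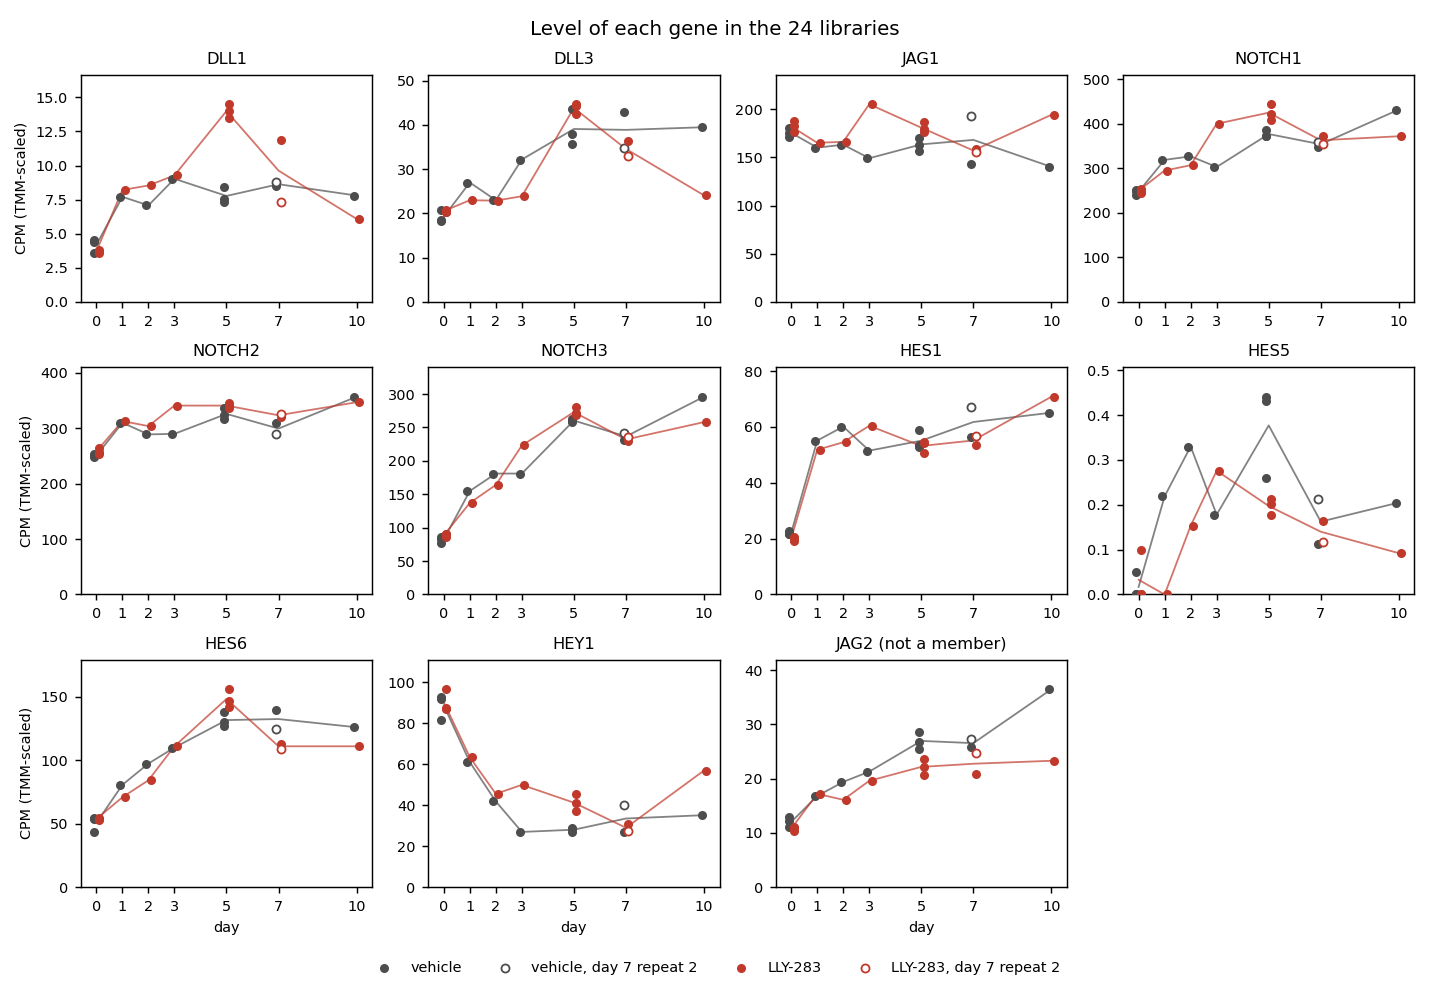
Level in CPM (TMM-scaled, vertical axes from 0) of the 10 genes, and of JAG2 for comparison, against day in all 24 libraries. Each point is 1 library, lines join the mean of each day, and open points are the day 7 libraries labelled repeat 2. DLL1 at day 5 lies between 13.5 and 14.5 CPM under LLY-283 and between 7.35 and 8.4 CPM with vehicle, and HEY1 falls in both groups from 81.8 CPM or more at day 0.

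DLL1 encodes a Delta ligand that activates receptors on neighbouring cells. The gene lies at chr6:170282206-170306565 on the minus strand (GRCh38, GENCODE release 44). Its level was 4.42, 3.62 and 4.52 CPM in the vehicle libraries of day 0 and 3.6, 3.78 and 3.77 CPM in the LLY-283 libraries. At day 5 it was 7.57, 8.4 and 7.35 CPM under vehicle and 13.5, 14 and 14.5 CPM under LLY-283. The day 5 groups did not overlap, and the counts behind them were 100 to 130 with vehicle and 228 to 286 with LLY-283.

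Between treatment groups DLL1 differed by 0.84 on the log2 scale at day 5 (SE 0.1, adjusted p = 2.6e-07, edgeR quasi-likelihood test) and by -0.17 at day 0 (SE 0.16, adjusted p = 0.91). The treatment effect at day 5 exceeded that at day 0 by 1.02 (SE 0.17, adjusted p = 5.6e-05). In a fit of all 22 libraries of days 0 to 7, which takes in the wide spread of day 7, this difference was 0.98 with an adjusted p of 0.015 and was no longer called. From day 0 to day 5 DLL1 rose 1.87-fold in vehicle (log2 0.91, SE 0.14, adjusted p = 4.2e-06) and 3.77-fold with LLY-283 (log2 1.92, SE 0.11, adjusted p = 2.7e-13). These comparisons share libraries with that between the treatment groups. The study listed DLL1 as upregulated in its RNA sequencing but as unchanged by RT-qPCR over independent repeats.

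On the days with 1 library a group, DLL1 stood at 7.71 CPM under vehicle and 8.21 CPM under LLY-283 at day 1. The pair of day 2 held 7.08 and 8.54 CPM, and that of day 3 held 9.03 and 9.28 CPM. Vehicle was thus at its day 5 level by day 1, and the LLY-283 libraries of days 1 to 3 lay near vehicle. At day 7 the libraries labelled repeat 1 held 8.48 CPM (vehicle) and 11.9 CPM (LLY-283), and those labelled repeat 2 held 8.79 and 7.36 CPM. At day 10 the order was vehicle 7.8 and LLY-283 6.09 CPM, so the LLY-283 library was not the higher one at the end of the course. DLL1 shares 370 exon bases with FAM120B, which runs on the other strand. The library kit keeps strand, but whether the counting used it is not given in the sources used here. FAM120B stood at 23.4 to 26.1 CPM under vehicle and 25.4 to 27.4 CPM under LLY-283 at day 5, and these ranges overlap.

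DLL3, at chr19:39498895-39508481 on the plus strand, encodes a divergent Delta ligand that acts mainly inside the cell, where it restrains Notch signalling. Levels at day 0 were 18.5, 20.9 and 18.4 CPM under vehicle and 20.4, 20.4 and 20.8 CPM under LLY-283. At day 5 they were 38, 35.7 and 43.6 CPM under vehicle and 44.7, 44.4 and 42.4 CPM under LLY-283, so the groups overlapped in 1 vehicle library. That library, vehicle day 5 repeat 3, is the one with 160 CPM of collagen and fibronectin transcripts, whose part in the result was not tested.

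The difference of DLL3 at day 5 was 0.16 (log2, SE 0.06, adjusted p = 0.039), short of the threshold. Without vehicle day 5 repeat 3 it was 0.23 with an adjusted p of 0.0047. Over all fits that left out 1 library it ran from 0.09 to 0.23, with adjusted p up to 0.3. DLL3 rose from day 0 to day 5 in both groups, 2.04-fold in vehicle (log2 1.03, SE 0.072, adjusted p = 5.7e-12) and 2.14-fold with LLY-283 (log2 1.10, SE 0.054, adjusted p = 1.7e-14).

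In single libraries DLL3 stood at 27, 23 and 32.2 CPM under vehicle at days 1, 2 and 3, and at 23, 22.9 and 23.9 CPM under LLY-283. The LLY-283 libraries had covered 15%, 14.4% and 19.9% of their log2 change to day 5 by then, and the vehicle libraries 48.3%, 25.5% and 73.2%. At day 10 DLL3 was at 39.5 CPM under vehicle and 24.1 CPM under LLY-283. Its day 7 values were 43 and 34.8 CPM in the libraries labelled vehicle and 36.3 and 32.9 CPM in those labelled LLY-283.

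JAG1 (chr20:10637684-10673999, minus strand) encodes a Jagged ligand. It was the steadiest of the ligands over time, between 140 and 205 CPM in all 24 libraries. At day 0 it was at 175, 180 and 171 CPM under vehicle and at 188, 176 and 182 CPM under LLY-283. At day 5 it was at 170, 157 and 163 CPM under vehicle and at 179, 176 and 187 CPM under LLY-283, without overlap. The difference was 0.14 (log2, SE 0.039, adjusted p = 0.0066), and it lost its call when any 1 of 5 of the 6 libraries was left out, with adjusted p up to 0.1. Over all alternatives, those of processing included, it kept its call in 6 of 14. From day 0 to day 5 JAG1 did not pass in vehicle (log2 -0.09, SE 0.038, adjusted p = 0.045) or with LLY-283 (log2 -0.01, SE 0.036, adjusted p = 0.85). In single libraries, vehicle first, JAG1 stood at 160 and 165 CPM at day 1, 163 and 166 CPM at day 2, 149 and 205 CPM at day 3, and 140 and 194 CPM at day 10. At day 7 it was at 143 and 159 CPM in the libraries labelled repeat 1 and at 193 and 155 CPM in those labelled repeat 2, so the order differed between the repeats. JAG1 shares 306 exon bases with a lncRNA on the other strand (ENSG00000270792), which had 87 counts over all libraries.

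The receptors receive the ligand signal at the cell surface. NOTCH1 (chr9:136494433-136546048, minus strand) was at 250, 241 and 252 CPM under vehicle and 245, 253 and 252 CPM under LLY-283 at day 0, where the groups overlapped. It was at 386, 372 and 373 CPM under vehicle and 408, 444 and 423 CPM under LLY-283 at day 5. The groups did not overlap, and the difference was 0.16 (log2, SE 0.037, adjusted p = 0.00098). In single libraries, vehicle first, NOTCH1 stood at 319 and 295 CPM at day 1, 327 and 307 CPM at day 2, 303 and 400 CPM at day 3, and 432 and 372 CPM at day 10, with LLY-283 the higher only at day 3. At day 7 it was at 348 and 372 CPM (repeat 1) and at 360 and 354 CPM (repeat 2). Leaving out vehicle repeat 2, vehicle repeat 3 or LLY-283 repeat 2 of day 5 took its adjusted p to between 0.011 and 0.025.

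NOTCH2 (chr1:119911553-120100779, minus strand) was at 337, 324 and 317 CPM under vehicle and 345, 341 and 337 CPM under LLY-283 at day 5. The difference of 0.06 (log2, SE 0.035) had an adjusted p of 0.21. Human NOTCH2 has near-identical partial copies, so its counts are uncertain. The copy NOTCH2NLA stood at 31.3 to 33.8 CPM under vehicle and 30.8 to 34.1 CPM under LLY-283 at day 5.

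NOTCH3 (chr19:15159038-15200995, minus strand) was at 261, 258 and 262 CPM under vehicle and 268, 280 and 271 CPM under LLY-283. The difference of 0.06 (log2, SE 0.035, adjusted p = 0.18) did not pass, although the groups did not overlap. In all, 7 of the 9 tested genes had groups that did not overlap at day 5, against 45.2% of all genes tested.

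Over time NOTCH1, NOTCH2 and NOTCH3 rose together in both groups. NOTCH3 rose most, 3.19-fold in vehicle (log2 1.67, SE 0.039, adjusted p = 1e-22) and 3.09-fold with LLY-283 (log2 1.63, SE 0.037, adjusted p = 6.2e-21). NOTCH1 rose 1.53-fold in vehicle and 1.70-fold with LLY-283, and NOTCH2 rose 1.31-fold and 1.32-fold, with adjusted p of at most 5.8e-10 in edgeR. The rise of NOTCH3 to day 5 was gradual, and its day 7 libraries lay below those of day 5. In vehicle it went from 77.7 to 85.8 CPM at day 0 to 155 CPM at day 1, 181 CPM at days 2 and 3, 231 and 242 CPM at day 7, and 296 CPM at day 10. With LLY-283 it went from 85.4 to 90.8 CPM at day 0 to 137, 164 and 223 CPM at days 1, 2 and 3, 229 and 235 CPM at day 7, and 258 CPM at day 10.

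HES1, HES5 and HES6 encode bHLH proteins. HES1 and HES5 are the canonical Notch-induced repressors, while HES6 does not need Notch and counters HES1. Of the 10 genes, 7 had an entry in the RefSeq promoter table (GRCh38.p14), namely JAG1, NOTCH1, NOTCH2, NOTCH3, HES1, HES5 and HES6. The 250 bases before the start were searched on both strands for the RBPJ core TGGGAA, which Notch targets can carry in pairs, for the E-box CAGCTG, a site of bHLH proteins, and for the N-box CACNAG and class C site CACGNG of HES repressors, which can overlap. HES1 and HES5 are shown because they alone of the 7 hold the RBPJ core, 2 matches each, and capitals mark it on either strand. HES1 is at chr3:194135898-194136147 on the plus strand and HES5 at chr1:2530264-2530513 on the minus strand.
HES1: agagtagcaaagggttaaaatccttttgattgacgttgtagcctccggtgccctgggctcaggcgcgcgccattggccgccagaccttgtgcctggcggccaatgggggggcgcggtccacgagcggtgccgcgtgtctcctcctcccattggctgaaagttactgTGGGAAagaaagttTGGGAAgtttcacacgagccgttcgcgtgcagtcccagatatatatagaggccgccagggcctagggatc
HES5: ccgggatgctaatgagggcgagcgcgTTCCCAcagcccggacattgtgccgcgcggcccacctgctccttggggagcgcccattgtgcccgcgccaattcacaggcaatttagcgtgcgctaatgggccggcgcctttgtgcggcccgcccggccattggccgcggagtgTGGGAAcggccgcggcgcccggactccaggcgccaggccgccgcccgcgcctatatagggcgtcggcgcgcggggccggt

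In HES1 the matches began 84 and 70 bases before the start, on the same strand, and in HES5 they began 224 and 80 bases before it, on opposite strands. The RBPJ core was in 20.8% of the 35116 promoters of the table, so a single match is common. HES6 held 1 E-box CAGCTG, 158 bases before its start in the promoter table, a motif found in 14% of promoters. The HES6 bases searched, chr2:238240039-238240288, lie inside the gene as annotated by GENCODE release 44 (chr2:238238267-238240662, minus strand). HES1 held 3 N-boxes and 4 class C sites, 2 of them at the same place, and NOTCH3 held 1 of each at the same place. The N-box was in 32% and the class C site in 26.7% of promoters. A match is a description of these letters and not evidence of binding.

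HES1 RNA rose early in both groups, and no difference between them was called at day 5. It was at 21.5, 22.9 and 21.7 CPM under vehicle and 20.3, 19.2 and 20.7 CPM under LLY-283 at day 0. By day 1 it was at 55.1 CPM under vehicle and 51.8 CPM under LLY-283, which is 100% and 97.3% of the log2 change to day 5. At day 5 it was at 52.8, 53.5 and 58.9 CPM under vehicle and at 54.7, 50.6 and 54.2 CPM under LLY-283, and the groups overlapped. From day 0 to day 5 HES1 rose 2.51-fold in vehicle (log2 1.33, SE 0.059, adjusted p = 7.7e-17) and 2.65-fold with LLY-283 (log2 1.41, SE 0.055, adjusted p = 2e-16). The treatment difference was -0.06 (log2, SE 0.052, adjusted p = 0.42) at day 5 and -0.14 (SE 0.063, adjusted p = 0.86) at day 0, where the groups did not overlap. Neither passed, which does not show that the groups were equal.

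HES6 rose more slowly. In vehicle it went from 43.4, 54.6 and 53.8 CPM at day 0 through 80.6, 97.4 and 110 CPM at days 1, 2 and 3 to 130, 127 and 138 CPM at day 5. With LLY-283 it went from 53.4, 54.4 and 53.1 CPM through 70.8, 84.2 and 111 CPM to 142, 147 and 156 CPM. The day 5 groups did not overlap, and the difference was 0.17 (log2, SE 0.043, adjusted p = 0.0034). It fell short of the threshold when 1 of 4 libraries was left out, with adjusted p up to 0.049. The rise to day 5 was 2.62-fold in vehicle (log2 1.39, SE 0.072, adjusted p = 8.8e-08) and 2.77-fold with LLY-283 (log2 1.47, SE 0.043, adjusted p = 1.4e-18). At day 7 the order was the other way. The libraries labelled vehicle held 140 and 125 CPM, and those labelled LLY-283 held 113 and 109 CPM. At day 10 the single libraries held 126 CPM under vehicle and 111 CPM under LLY-283. The LLY-283 library was also the lower one at days 1 and 2, and at day 3 the pair was near equal.

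HES5 was barely detected. It had 0 to 7 counts a library and 70 in all, with 0 counts in 5 libraries. A count of 0 allows up to 0.217 CPM at the smallest library total and 0.129 CPM at the largest, counting error alone. The totals of these 5 libraries lay between the smallest and the largest. At day 5 it had 7, 4 and 6 counts in vehicle and 3, 4 and 4 with LLY-283, 17 against 11 in sum, and at day 0 the sums were 1 and 2. In the fit without a filter the day 5 difference between treatment groups was -0.90 (log2, SE 0.67, adjusted p = 0.5), so no difference was detectable at this depth. From day 0 to day 5 the same fit gave 4.01 in vehicle (SE 1.1, adjusted p = 0.0014) and 2.33 under LLY-283 (SE 1.1, adjusted p = 0.13), on sums of at most 17 counts, and the size of these fitted changes depends on the prior count.

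HEY1, the target that fell over time, lies at chr8:79762371-79767857 on the minus strand and encodes a bHLH repressor that Notch and BMP signals can induce. At day 0 it was at 81.8, 91.7 and 92.7 CPM under vehicle and 96.6, 87 and 87.2 CPM under LLY-283. In vehicle it was at 61 CPM at day 1, 41.8 CPM at day 2, 26.9 CPM at day 3 and 29, 26.9 and 28.1 CPM at day 5. With LLY-283 it was at 63.4, 45.5 and 49.9 CPM at days 1, 2 and 3 and at 45.5, 36.9 and 41.2 CPM at day 5. Every LLY-283 library of day 5 was above every vehicle library of that day, and all 6 were below those of day 0.

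The treatment difference of HEY1 was 0.54 at day 5 (log2, SE 0.066, adjusted p = 2.7e-07) and 0.02 at day 0 (SE 0.047, adjusted p = 0.96). The effect at day 5 exceeded that at day 0 by 0.53 (SE 0.095, adjusted p = 0.00041), which fell to 0.49 with an adjusted p of 0.074 in the fit of all 22 libraries. HEY1 fell by 1.65 on the log2 scale from day 0 to day 5 in vehicle (SE 0.055, adjusted p = 1.9e-19) and by 1.13 with LLY-283 (SE 0.062, adjusted p = 1.3e-09). At day 7 the library labelled vehicle repeat 2 was the highest, at 40.2 CPM, against 26.7 CPM under vehicle repeat 1, 30.7 CPM in LLY-283 repeat 1 and 27.2 CPM in LLY-283 repeat 2. At day 10 the single libraries held 35.1 CPM under vehicle and 56.9 CPM under LLY-283.

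**Figure D2:**
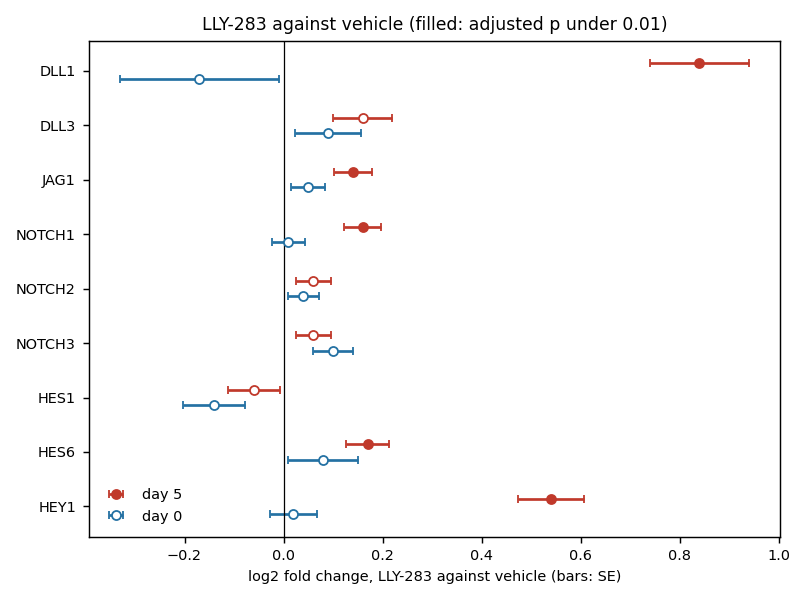
Log2 fold change of the 9 tested genes, LLY-283 against vehicle, at day 5 and at day 0 (points, with SE as bars), filled where the adjusted p was under 0.01. DLL1 (0.84) and HEY1 (0.54) stand apart at day 5, and no gene is filled at day 0.

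Set side by side, the changes from day 0 to day 5 went the same way in the treatment groups, with 7 of the 9 genes higher, HEY1 lower and JAG1 not called. Of 17106 genes, 38.9% were called in vehicle, 22.2% higher and 16.7% lower. With LLY-283, 42.4% of 17341 were called, 22.9% higher and 19.5% lower. The balance of directions over all genes in vehicle depends on the scaling, with 3799 higher and 2853 lower under TMM but 3039 and 3545 with library size alone, while the 8 called members kept their direction under both. The test of whether the treatment effect differed between days 5 and 0 called 14.9% of 18369 genes, 6.78% as higher and 8.15% as lower, that is 1245 and 1497 genes under TMM but 1493 and 1252 with library size alone. It called 2 of the 9 members, DLL1 and HEY1, both higher.

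**Figure D3:**
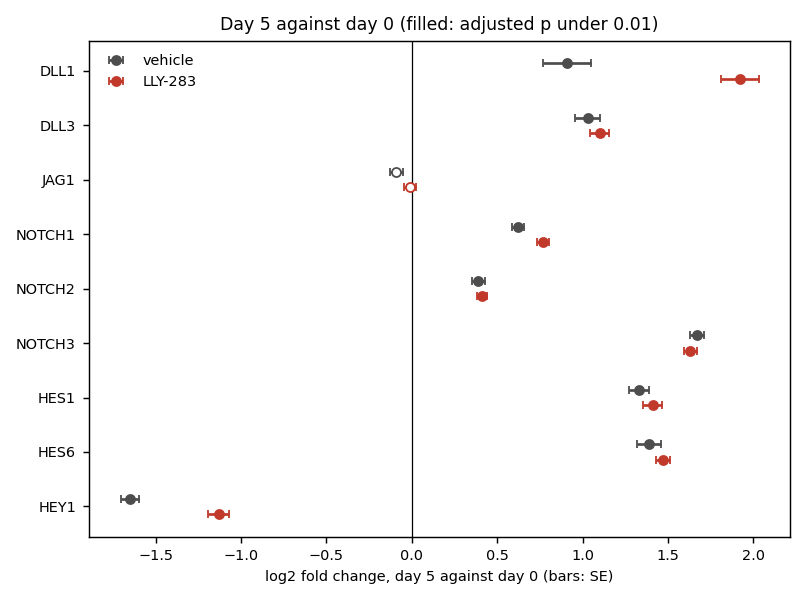
Log2 fold change of the 9 tested genes from day 0 to day 5 in vehicle and in LLY-283 libraries (points, with SE as bars), filled where the adjusted p was under 0.01. NOTCH3 rises most in vehicle (1.67), DLL1 most with LLY-283 (1.92), and HEY1 lies left of 0 in both groups.

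Over days 0 to 7, the treatment-by-day test called none of the 9 genes, and 6 had an unadjusted p under 0.05. Over all genes, 3166 of 20756 had an unadjusted p under 0.05 (edgeR). Only 6 of 20756 genes were called in all, 0.0289%, by edgeR. DESeq2 called 249 genes, HEY1 and NOTCH1 among them. The result turned on the day 7 libraries, whichever pair was left out. Without the 2 labelled repeat 2, 9.66% of genes were called and 5 of the 9 members, DLL1 (adjusted p = 0.0012), DLL3 (0.0067), NOTCH1 (0.0019), NOTCH3 (0.0076) and HEY1 (0.0021). Without the 2 labelled repeat 1, an alternative added after the data were seen, 14.5% of genes were called and 5 members, DLL1 (adjusted p = 0.00023), JAG1 (6.8e-05), NOTCH1 (0.00034), NOTCH3 (0.0018) and HEY1 (6.1e-05). Without all 4 libraries of day 7, 9.61% of genes and 6 members were called, DLL1, DLL3, JAG1, NOTCH1, NOTCH3 and HEY1. Day 7 was not tested on its own here. The test has no direction, and leaving out either pair leaves 1 library per arm at day 7. In log2 CPM, LLY-283 minus vehicle, the pairs labelled repeat 1 and repeat 2 went opposite ways for DLL1 (0.48, -0.25) and HEY1 (0.20, -0.56). They also did so for JAG1 (0.16, -0.31) and NOTCH1 (0.09, -0.02). Both pairs were lower with LLY-283 for DLL3 (-0.24, -0.08) and NOTCH3 (-0.02, -0.05).

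Per kilobase of annotated exon, which allows levels to be compared between genes, the order at day 0 in vehicle was HES6, NOTCH1, JAG1, HEY1, NOTCH2, HES1, NOTCH3, DLL3, DLL1 and HES5. Mean levels ran from 25.9 CPM per kb for HES6 (SD 3.2, n = 3) and 19.8 for NOTCH1 (SD 0.488) to 1.1 for DLL1 (SD 0.13) and 0.0128 for HES5 (SD 0.0221). The libraries of NOTCH1 and JAG1 overlapped, as did those of HEY1 and NOTCH2, so those neighbours did not differ beyond their spread. At day 5 in vehicle HES6 still led, at 67.3 CPM per kb (SD 2.91), NOTCH3 at 27.7 (SD 0.25) and HES1 at 26.7 (SD 1.6) had moved up from places 7 and 6 to 3 and 4 with overlapping libraries, and HEY1 at 5.1 (SD 0.197) had moved down from place 4 to 8. DLL1 held place 9 in all 4 groups, at 2.04 CPM per kb (SD 0.146) in vehicle and 3.66 (SD 0.127) with LLY-283 at day 5. The exon length is the union over annotated transcripts, so a gene that uses short transcripts is understated.

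**Figure D4:**
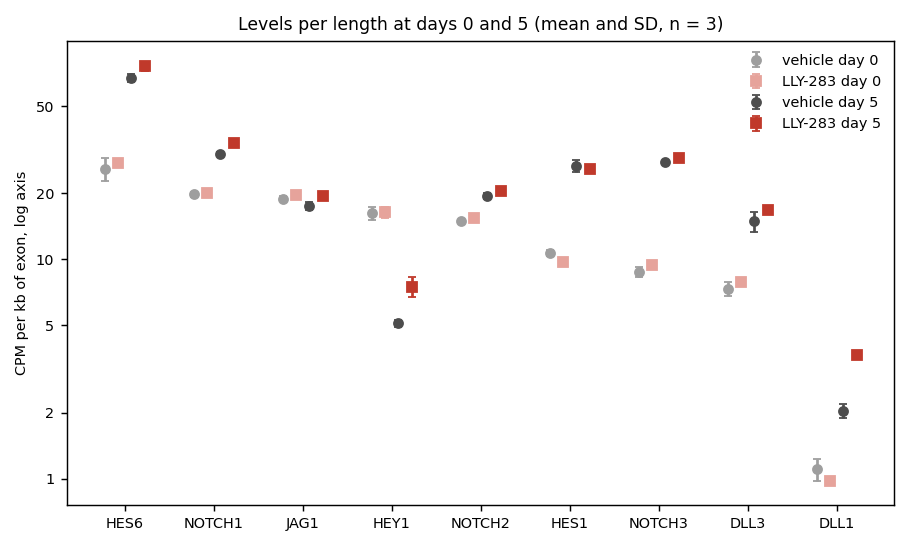
Mean level per kilobase of exon (CPM per kb, log axis, SD as bars, n = 3) of 9 genes in the 4 groups of days 0 and 5, ordered by vehicle day 0. HES5 is left out since its mean at day 0 was 0.0128 CPM per kb in vehicle. HEY1 drops from 16.2 to 5.1 in vehicle and NOTCH3 rises from 8.75 to 27.7.

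The rest of the pathway was described from lists of 46 other genes, of which 34 passed the filter at day 5. The 46 include 5 proneural factors, which are neuronal differentiation genes rather than parts of the pathway, and 0 of these 5 were tested. Among them, NEUROG1, NEUROG2 and ATOH1 had 0 counts in all 24 libraries. Of the 34 that passed, 10 were higher with LLY-283, 2 lower and 22 not called. Over all genes 26.1% were called, 12% as higher. That is 1987 higher and 2317 lower under TMM, but 2274 and 1840 with library size alone. The median difference of the 34 was 0.05 (log2) beside 0.02 over all genes. At day 0 none of the 34 was called by edgeR, and 1 had an unadjusted p under 0.05, beside 1012 of all 17780 genes. The calls of the list at day 5 were thus mostly higher, while its median was near that of all genes.

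Among the other ligands, JAG2, the other Jagged ligand, was lower with LLY-283 at day 5, at 23.7, 22.2 and 20.6 CPM against 25.5, 26.7 and 28.7 CPM under vehicle (log2 -0.29, SE 0.069, adjusted p = 0.0013). It rose over time in both groups, 2.27-fold in vehicle (adjusted p = 5.7e-13) and 2.06-fold with LLY-283 (adjusted p = 3.7e-11). JAG2 and JAG1 thus differed in opposite directions between treatment groups at day 5. JAG2 kept its call in 12 of 14 alternatives, with adjusted p up to 0.014 when 1 library was left out. At day 0 JAG2 was also lower with LLY-283, not called and with overlapping groups (log2 -0.16, SE 0.088, adjusted p = 0.87, edgeR). The difference of the treatment effect between days 5 and 0 was not called for JAG2 (log2 -0.13, adjusted p = 0.43) or JAG1 (log2 0.09, adjusted p = 0.23). DLK2, a Delta-like gene without the receptor-activating domain, had means of 1.74 and 0.942 CPM and was not called (log2 0.84, adjusted p = 0.05). NOTCH4, the remaining receptor, was at 1.69 to 3.45 CPM over all libraries and was not called at day 5. Unlike the other receptors it was lower at day 5 than at day 0, short of the threshold in edgeR. The change was -0.54 in vehicle (log2, SE 0.22, adjusted p = 0.041) and -0.52 with LLY-283 (SE 0.19, adjusted p = 0.028).

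Of 4 tested enzymes that put sugars on the receptor, 1 was lower, 1 higher and 2 not called, where 26.1% of all genes were called. LFNG, the lunatic fringe glycosyltransferase that tunes which ligands a receptor answers to, was lower, with means of 9.01 CPM (SD 1, n = 3) against 11.5 CPM (SD 0.375, n = 3) in vehicle (log2 -0.37, SE 0.11, adjusted p = 0.0076). POGLUT1, the O-glucosyltransferase, was higher (log2 0.21, SE 0.059, adjusted p = 0.0059). Both calls were lost under DESeq2, and LFNG kept its call in 6 and POGLUT1 in 8 of 14 alternatives. Of 8 tested genes of receptor cleavage, 2 were higher, near the 26.1% of all genes called, both of the gamma-secretase complex: NCSTN (log2 0.19, SE 0.043, adjusted p = 0.00061) and PSEN2 (log2 0.26, SE 0.062, adjusted p = 0.0015). NCSTN kept its call in 12 and PSEN2 in 10 of 14 alternatives.

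Genes of ligand and receptor endocytosis and turnover had 6 of 11 higher and none lower at day 5, where 12% of all genes were called higher. The 2 of smallest p were DTX3, a Deltex E3 ligase family member, at 46.7 CPM (SD 1.03) with LLY-283 against 32.6 CPM (SD 1.58) in vehicle (log2 0.51, SE 0.056, adjusted p = 3.7e-08), and NUMBL, a relative of the Notch inhibitor NUMB, at 67.3 CPM (SD 3.59) against 50.8 CPM (SD 1.07) (log2 0.40, SE 0.051, adjusted p = 4.6e-07). MIB2, an E3 ligase for ligands (log2 0.54), and DTX1 (log2 0.38) were called too and are named after their values were seen. The median difference of this list was 0.19. The list was chosen with earlier results of these data known, so its share of calls is a description only. In the nuclear complex 1 of 5 was called, MAML2, a Mastermind coactivator (log2 0.22, SE 0.044, adjusted p = 0.00024). None of the 3 tested among 6 other targets was called. Of those 6, HEY2 and HEYL had 0 counts in all 24 libraries, which allows at most 0.217 CPM in the smallest.

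**Figure D5:**
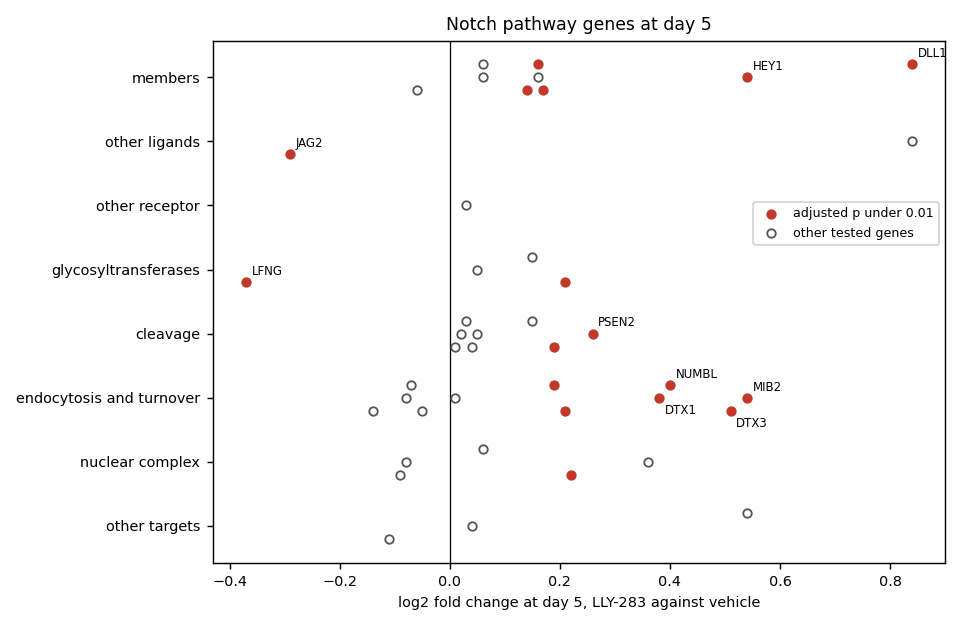
Log2 fold change at day 5, LLY-283 against vehicle, of each tested gene by list. Each point is 1 gene, filled where the adjusted p was under 0.01, and called genes past 0.25 in either direction carry their names. Turnover genes have 6 filled points right of 0, and LFNG (-0.37) and JAG2 (-0.29) are the filled points left of it.

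The genes whose pattern over the 24 libraries was most like each member were found by the Pearson correlation of log2 CPM among 20756 genes, given here as a description, since all libraries share a course in time. DLL1 was most like SYNJ1 (r = 0.946), DISP1 (0.945) and RNF145 (0.941). NOTCH3 was most like SYNM (0.989) and HES1 most like DDIT4 (0.977). NOTCH1 went with KIAA1958 (0.976), HES6 with PTP4A3 (0.965), NOTCH2 with NUFIP2 (0.962), HEY1 with TMX4 (0.955) and DLL3 with RGS16 (0.948). JAG1 had the lowest best match, ACTR3B (0.859). Among the members themselves, NOTCH3 and HES6 were the most alike (r = 0.98), and HEY1 ran against NOTCH3 (-0.86) and HES6 (-0.87).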

How the data were processed

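Per the labels and the study's methods, 24 polyadenylated RNA libraries were made with a directional kit. The authors pseudoaligned trimmed reads to the hg38 transcriptome by kallisto. The deposited values are estimated counts, whole and not normalized, for each gene identifier. The kallisto version and strand setting are not given in the sources used here. Tests were run in R 4.3.3 by edgeR 4.0.16 (TMM, filterByExpr, quasi-likelihood F-tests in robust mode). P-values were adjusted over all genes tested (Benjamini-Hochberg), and genes under 0.01 were called. Day 10, which had 1 library per arm, entered no test. Log2 CPM used a prior count of 2. Symbols, coordinates and exon lengths came from GENCODE release 44, which matched 58207 of 58676 identifiers. Alternatives were DESeq2 1.42.0, its size factors, library size alone, other filters, a threshold of 0.05, a repeat-number block, a single fit of the 22 libraries of days 0 to 7, and leaving out libraries. The test script was checked on simulated data. Limits from counts cover counting error alone. Members and lists were chosen with earlier results of these data known. All members were named, and from each list of other pathway genes the 2 called genes of smallest p at day 5. A gene first listed is not reported here and is left out of the list counts. NOTCH2NLB, NOTCH2NLC and NOTCH2NLR were not analysed here.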

Additional observations from a re-analysis of the deposited data

Results flagged for a closer look

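Among members and list genes of smallest p, the treatment effect differed between days 5 and 0 for 5 (edgeR, adjusted p under 0.01). The test called 2 of the 9 tested members, DLL1 and HEY1, and 14.9% of all 18369 genes. The list genes were picked by their p at day 5, and this test uses the same day 5 libraries. That choice favours their calls, which are no separate evidence. The treatment effect was larger at day 5 by 1.02 (log2) for DLL1, 0.57 for DTX3, 0.53 for HEY1, 0.37 for NUMBL and 0.28 for POGLUT1, with adjusted p of 5.6e-05, 2.5e-06, 0.00041, 0.00059 and 0.0087. The call held in 19 of 20 alternatives for DLL1, DTX3, HEY1 and NUMBL, each losing it in the fit of all 22 libraries, and in 8 of 20 for POGLUT1, with adjusted p up to 0.045 when 1 library was left out. Of the other turnover genes, the test also called MIB2 (0.57, adjusted p = 0.00066), DTX1 (0.53, 0.0057) and FBXW7 (0.26, 0.0036). They are named after their values were seen, and their alternatives are not given here. Day 10 entered no test and has no replicate check. Its 1 LLY-283 library held more HEY1 than its 1 vehicle library, by 0.70 in log2 CPM, while DLL3 (-0.71) and JAG2 (-0.65) went the other way.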

How the results depend on the processing

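Of the counts of called members, 88 under an alternative stayed within 1.5 times the reported count and 14 did not. At day 5, 5 members were called, 2 in the fit of all 22 libraries (JAG1, NOTCH1 and HES6 lost) and 2 to 5 when 1 library was left out. The difference of the treatment effect between days 5 and 0 called 2 members and 0 in the fit of all 22 libraries, where all genes called fell from 2742 to 51. The treatment-by-day test called 0 members, but 2 with DESeq2, 4 with no filter on low counts, 6 without the 4 libraries of day 7, 5 without the 2 labelled repeat 2, 5 without the 2 labelled repeat 1 (added after the data were seen), and 0 to 2 when 1 library was left out. Over all genes it called 6, and 249, 1217, 1984, 2002 and 3008 under the former 5 settings, and 0 to 894 when 1 library was left out, with 894 without LLY-283 day 7 repeat 1, 429 without its repeat 2, 274 without vehicle day 7 repeat 1 and 38 without its repeat 2. At day 0, 3 genes were called and 56 with no filter. At day 5 the 4304 called genes became 2042 in the fit of all 22 libraries. The cause of these shifts was not tested. Values near 0 that changed sign, none of them called, were those of NOTCH1 (-0.00 with library size alone, -0.01 to 0.03 leaving out 1 library), HES6 (-0.02 to 0.13) and HEY1 (-0.03 to 0.05) at day 0, JAG1 with LLY-283 from day 0 to 5 (-0.04 to 0.01), and, in the difference of effects, DLL3 (-0.01 to 0.15) and NOTCH2 (-0.00 to 0.04, and -0.02 in the fit of all 22 libraries). The numbers of the repeats did not pair the samples, with correlations of deviations from -0.052 to 0.053, and with the replicate block 5, 0, 8, 8, 2 and 0 members were called in the 6 comparisons, as without it.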
